A study of Mus musculus with 141 samples.

Results

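Epithelial sodium channel, sodium pump and chloride transport genes were examined in single cells of the mouse lung. The 7 genes were taken by name from the 17136 genes counted: the channel subunits *Scnn1a*, *Scnn1b* and *Scnn1g*, the pump beta subunits *Atp1b1* and *Atp1b3*, the chloride channel gene *Cftr* and the cotransporter gene *Slc12a2*. All 7 had reads in the cells used. The question was which of these subunits each kind of cell carried, and whether they occurred in the same cells.

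The cells came from 1 male *ACID;R26tdTomato* mouse of 4 months, for which the labels give the strain 129SV and the study's methods a 129S6/SvEvTac background. In this animal Cre is expressed from the *Aqp5* locus and removes a stop cassette in front of tdTomato at the *Rosa26* locus, so the reporter marks cells with present or past *Aqp5* expression. The sort took tdTomato+ cells that were CD31-, CD45- and E-cadherin+, and these were captured on a Fluidigm C1 chip, where wells with more than 1 cell were excluded by microscopy. Every cell carried the same alleles and received no treatment, so the comparison was between kinds of cell within 1 animal, and animals were not replicated.

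Of the cells counted, 92 had a mitochondrial share of reads under 0.15 and were used, the same number as the study states for its final set, and 49 were left out. Total reads per cell before this limit ranged from 91402 to 2170760 with a median of 419970. The 45 cells with at least 5000 CPM (counts per 1000000 reads of the cell) of *Ager*, a receptor gene used as a marker of alveolar type 1 cells, formed the type 1 class. The 11 cells with at least 8000 CPM of *Sftpc*, the surfactant protein C gene of alveolar type 2 cells, formed the type 2 class, and 36 cells with neither made up the rest. No cell passed both limits. The lowest *Ager* value inside the type 1 class was 9335 CPM and the highest outside was 1402 CPM, and for *Sftpc* the corresponding values were 25437 CPM and 7774 CPM. In the rest, 3 cells lay within 2-fold below the *Sftpc* limit. Median depth was 468718 reads in type 1, 413806 in type 2 and 693389 in the rest.

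The labels call every cell alveolar type 1, and markers went against this outside the type 1 class. A cell was taken to carry a marker list when at least 50% of its genes were above 100 CPM. All 45 type 1 cells carried the type 1 list, of which 3 also carried the club list. *Ager* and *Sftpc*, which set the classes, are on these lists. On the other 11 genes of the type 1 list alone, all 45 type 1 cells and 0 of the cells outside carried it, with a median sum of 23359 CPM in type 1, 679 CPM in type 2 and 651 CPM in the rest. On the other 10 genes of the type 2 list, 10 of 11 type 2 cells, 0 type 1 cells and 1 of 36 cells of the rest carried it. Their sum was at least 19532 CPM in type 2 cells and reached 19531 CPM in the rest. With *Sftpc* included, 9 of the 11 type 2 cells carried the type 2 list alone, 1 carried it with the club list, and 1 carried none. In the rest, 11 cells carried the club list alone, 4 the basal list and 12 the ciliated list, and they are called club-like, basal-like and ciliated-like. The other 9 cells, which carried none or more than 1 list, were left unnamed. The club-like group had the least sharp edge, with 7 cells 1 marker short of the 5 of 9 needed. Median summed levels of the type 1, type 2 and club lists were 47645, 525 and 285 CPM in type 1 cells, 1499, 225908 and 7642 CPM in type 2 cells, and 719, 567 and 50258 CPM in the rest. The basal and ciliated lists had medians of at most 8.77 CPM in every class and maxima of 10784 and 26725 CPM in the rest. The fibroblast and endothelial lists had medians of 0 in each class, with maxima of 6386 and 291 CPM in the rest. Of the ionocyte list 3 of 5 genes were listed, at no more than 4.27 CPM summed in any cell, of the macrophage list 1 of 6 was listed and had no reads, and of the neuroendocrine list 0 of 4 were listed.

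Sodium ions enter an airway or alveolar epithelial cell through the epithelial sodium channel, which is built from alpha (*Scnn1a*), beta (*Scnn1b*) and gamma (*Scnn1g*) subunits. They leave on the other side through the Na,K-ATPase, a pump with a catalytic subunit and a beta subunit such as *Atp1b1* or *Atp1b3* that the enzyme needs to mature and reach the membrane, and water follows. Chloride passes through channels such as CFTR and is loaded into the cell by the cotransporter NKCC1, the product of *Slc12a2*. In the lung this traffic keeps the alveoli from flooding and sets the liquid layer of the airways.

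*Scnn1g* and *Scnn1b* are neighbours on chromosome 7, on the same strand with 96562 bases between them, whereas *Scnn1a* lies on chromosome 6 (125320659 to 125344943). Their start regions are shown because these genes were high in the same class without always being detected in the same cell. The start region of *Atp1b1*, on chromosome 1, is set beside them as the member with the opposite class order and a large read number. Each sequence is the 250 bases before the annotated start in RefSeq (build GRCm38.p6), read 5′ to 3′ on the gene's strand, and capitals mark a GC box (GGGCGG, or CCGCCC on the other strand) or a CCAAT box (CCAAT, or ATTGG on the other strand).
Scnn1g, chr7:121734229-121734478, plus strand: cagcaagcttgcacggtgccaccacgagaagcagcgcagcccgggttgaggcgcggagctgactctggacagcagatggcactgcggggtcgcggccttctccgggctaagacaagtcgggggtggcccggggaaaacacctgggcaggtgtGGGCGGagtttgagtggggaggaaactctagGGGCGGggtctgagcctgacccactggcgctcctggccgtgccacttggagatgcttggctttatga
Scnn1b, chr7:121864788-121865037, plus strand: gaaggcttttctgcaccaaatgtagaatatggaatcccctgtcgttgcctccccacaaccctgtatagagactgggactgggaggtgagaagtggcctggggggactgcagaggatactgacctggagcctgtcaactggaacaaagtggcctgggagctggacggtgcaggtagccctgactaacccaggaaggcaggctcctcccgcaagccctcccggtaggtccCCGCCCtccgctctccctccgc
Atp1b1, chr1:164458356-164458605, minus strand: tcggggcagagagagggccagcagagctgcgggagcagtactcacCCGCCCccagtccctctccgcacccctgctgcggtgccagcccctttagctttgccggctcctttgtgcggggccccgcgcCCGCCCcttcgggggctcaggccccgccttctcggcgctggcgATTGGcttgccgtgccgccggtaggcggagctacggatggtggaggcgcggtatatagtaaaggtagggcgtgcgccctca

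The *Scnn1g* window held 2 GC boxes, beginning 98 and 67 bases before the start, and the *Scnn1b* window held 1, beginning 22 bases before it on the other strand. The *Atp1b1* window held 2 GC boxes on the other strand and 1 CCAAT box 81 bases before the start. A GC box was present in 32.7% and a CCAAT box in 33.8% of the 32851 start windows of the same length. The letters TGTTCT (the half-site of the glucocorticoid response element), GGAATG (bound by TEAD factors) and TATAAA (the TATA box) were also searched on both strands, at 16.1%, 12.6% and 12.4% of all windows, and were in none of these 3 windows. Windows were given for 5 of the 7 genes, and *Scnn1a* and *Slc12a2* were not among them. GC content was 65.2% for *Scnn1g*, 60.8% for *Scnn1b* and 70.4% for *Atp1b1*, beside a median of 52.4% over all windows.

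All 3 sodium channel subunits were at their highest in the type 1 class. *Scnn1a*, the subunit without which little current flows, had a level of 765 CPM in the summed reads of type 1 cells (95% Poisson interval 754 to 777), 76.7 CPM in type 2 (70.1 to 83.8) and 95.6 CPM in the rest (91.96 to 99.4). In single cells it ran from 5.30 to 3841 CPM in type 1 with a median of 608, from 0 to 335 CPM in type 2 with a median of 5.75, and from 0 to 769 CPM in the rest with a median of 5.72. The ranges overlapped, but 38 of 45 type 1 cells were above 100 CPM, against 3 of 11 type 2 cells and 9 of 36 cells of the rest. These intervals, and those that follow, cover counting error only: no molecular identifiers are stated, so reads are not independent molecules, and the spread between animals was not measured.

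*Scnn1b*, which with the gamma subunit raises the channel's presence at the membrane, was at 525 CPM in type 1 cells (515 to 534), 18.2 CPM in type 2 (15.1 to 21.8) and 17.3 CPM in the rest (15.8 to 18.98). Its values in type 1 cells spread from 0 to 3406 CPM with a median of 128.3, and 14 of the 45 cells had no read. In type 2 the 11 cells ran from 0 to 313 CPM with a median of 0, and the cell at 313 CPM held 91.5% of the class's reads, without which the level was 1.63 CPM. The rest ran from 0 to 385 CPM, also with a median of 0, and was at 9.66 CPM without its highest cell.

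*Scnn1g* was at 692 CPM in type 1 cells (682 to 703), 30.9 CPM in type 2 (26.7 to 35.5) and 15.9 CPM in the rest (14.4 to 17.4). Type 1 cells ran from 0 to 1891 CPM with a median of 568, type 2 cells from 0 to 272 CPM and cells of the rest from 0 to 260 CPM, both with a median of 0. A single type 2 cell held 97% of that class's reads, and without it the level was 1.04 CPM. Outside the type 1 class these 2 subunits were found in quantity in a few cells: more than 10 CPM of *Scnn1b* was seen in 2 type 2 cells and 4 cells of the rest, and more than 10 CPM of *Scnn1g* in 2 and 4. More than 10 CPM of *Scnn1a* was seen in 4 of 11 type 2 cells and 16 of 36 cells of the rest.

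**Figure D1:**
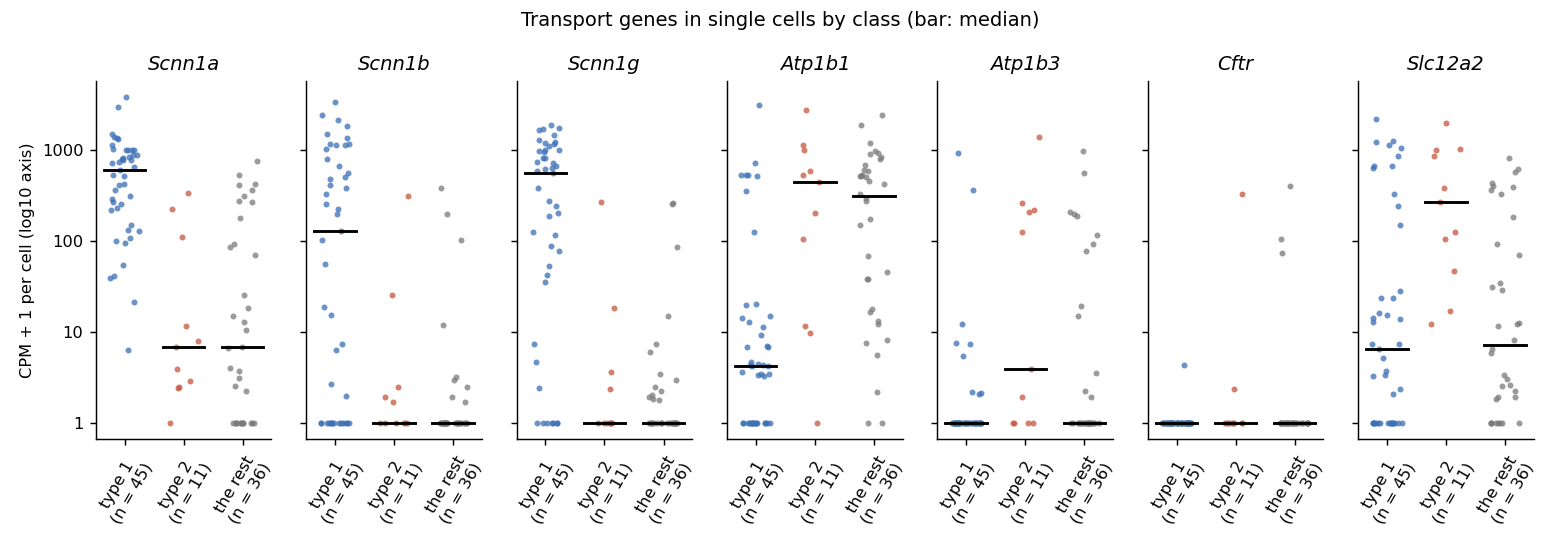
Each point is a kept cell, with CPM + 1 on a log10 axis and the 7 transport genes in separate panels. Blue is type 1 (n = 45), red type 2 (n = 11) and grey the rest (n = 36), with a black bar at the median. The 3 *Scnn1* medians are 608, 128.3 and 568 CPM in type 1 cells and at most 5.75 CPM elsewhere, while the *Atp1b1* medians are 3.21, 446 and 316 CPM.

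Summed over the 3 subunits, the channel level was 1982 CPM in type 1, 125.8 CPM in type 2 and 128.8 CPM in the rest. The type 1 level was 15.8-fold that of type 2 (14.7 to 16.9) and 15.4-fold that of the rest (14.9 to 15.9), a log2 ratio of 3.98 and 3.94. By subunit, the ratio of type 1 to type 2 was 9.98-fold for *Scnn1a* (9.12 to 10.9), 28.8-fold for *Scnn1b* (24.02 to 34.8) and 22.4-fold for *Scnn1g* (19.5 to 25.9). Type 2 and the rest had a ratio of 0.977 on the summed level (0.904 to 1.05), but that value rested on 1 type 2 cell and differed between chip columns. Without the cell with most channel reads in each class, type 2 was at 66.3 CPM and the rest at 113.7 CPM. Over chip columns 1 to 10 type 2 was higher, at 228 against 132.1 CPM, and over columns 11 to 20 lower, at 47.97 against 123.3 CPM. The ratio of type 1 to type 2 also differed in size, a log2 ratio of 2.99 over chip columns 1 to 10 and 5.53 over columns 11 to 20, and was positive in both. These sets of columns held 5 and 6 type 2 cells. The type 2 cells with most *Scnn1b* and most *Scnn1g* reads lay in columns 9 and 6. Chip position therefore cannot be told apart from which few cells fell in each set.

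Ratios of this size were common between type 1 and the 11 cells of type 2. Of 8796 genes at 10 CPM or more in either class, 51.4% were at least 1 log2 unit higher in type 1 than in type 2 and 24.3% at least 1 log2 unit lower, with a median log2 ratio of 1.13. Against that background, 3 of the 7 transport genes (the channel subunits) were higher in type 1 and 4 (the pump and chloride genes) were higher in type 2. Relative to the median gene the log2 ratios were 2.18 for *Scnn1a*, 3.71 for *Scnn1b* and 3.35 for *Scnn1g*, and 35.1%, 26.6% and 30.5% of genes lay at least as far towards type 1. Type 1 and the rest were more evenly matched, with a median log2 ratio of 0.0044, 33.4% of 10205 genes higher in type 1 and 34.8% higher in the rest. There 4 transport genes were higher in type 1, the 3 channel subunits and *Slc12a2*, and 3 were higher in the rest. The log2 ratio of *Slc12a2* was 1.07 and fell below 1, to between 0.74 and 0.99, in 6 of 14 other settings. Among the 14, the limits of 2500 CPM for *Ager* and 16000 CPM for *Sftpc* left every class unchanged. At least as far towards type 1 as *Scnn1a*, *Scnn1b* and *Scnn1g* lay 14.1%, 8.59% and 7.80% of genes. Between type 2 and the rest, *Cftr* and *Slc12a2* were higher in type 2 by at least 1 log2 unit, as were 21.7% of 9351 genes, and 0 of the 7 were higher in the rest, as were 51% of genes. The *Cftr* value rested on 1 type 2 cell, without which that class was at 0.371 CPM.

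The make-up of the channel in the pooled reads differed between the classes, by an amount that was not the same in each set of chip columns. To compare subunits with one another, reads were divided by the summed length of each gene's exons. Per kb, the type 1 reads were split almost evenly, with 30.1% *Scnn1a*, 32.3% *Scnn1b* and 37.6% *Scnn1g*. In type 2 the shares per kb were 51.9%, 19.3% and 28.8%, and in the rest 66.1%, 18.8% and 15.1%. *Scnn1a* thus had the largest pooled share outside type 1. The type 2 shares of *Scnn1b* and *Scnn1g* each came almost entirely from 1 cell: without the cell with most *Scnn1g* reads the 3 shares were 57.1%, 41.02% and 1.84%, without the cell with most *Scnn1b* reads 62.9%, 1.99% and 35.1%, and without both 91.5%, 5.59% and 2.95%. Reads made with this chip kit may lie near the 3′ end of a transcript, in which case their number would not grow with length, so shares of reads are given too: 38.6%, 26.5% and 34.9% in type 1 (*Scnn1a* 95% binomial interval 38.2 to 39.1, Clopper-Pearson), 60.98%, 14.5% and 24.5% in type 2, and 74.2%, 13.5% and 12.3% in the rest. Which subunit led in type 1 thus depended on the scale, *Scnn1g* per kb and *Scnn1a* by reads, whereas *Scnn1a* led in the other classes on both. It also differed between the sets of chip columns. Over columns 11 to 20 the type 1 shares per kb were 24.01%, 38.3% and 37.7%, with *Scnn1b* in the lead. Outside type 1 *Scnn1a* led in each set of columns, but its share per kb varied widely. Over columns 1 to 10 it was 42.1% in type 2 and 81.2% in the rest, beside 36.1% in type 1. Over columns 11 to 20 it was 94.4% in type 2 and 42.3% in the rest.

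**Figure D2:**
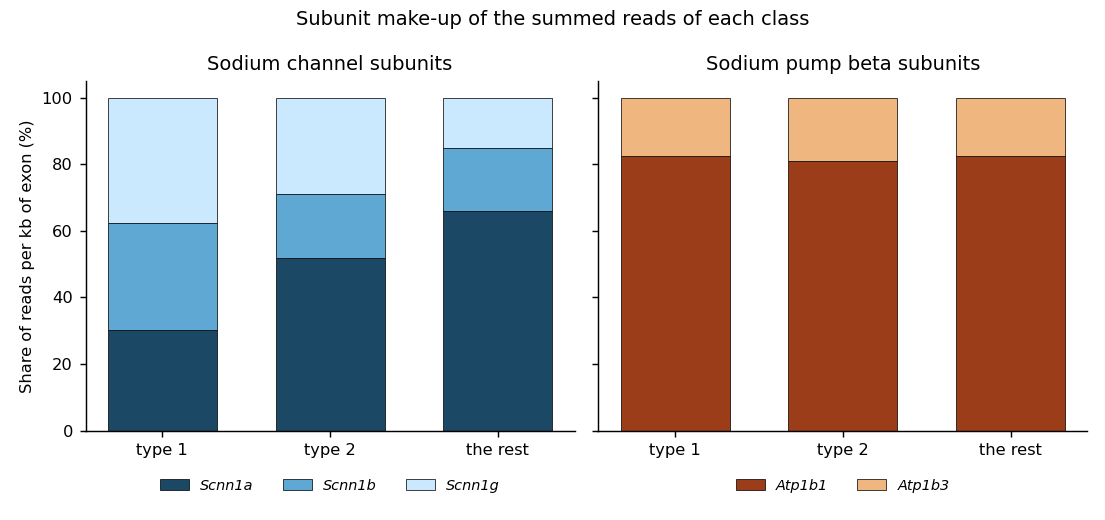
Stacked bars give the share of summed reads per kb of exon (%) for the sodium channel subunits (left) and the sodium pump beta subunits (right) in type 1, type 2 and the rest. The channel goes from an even split in type 1 (30.1%, 32.3% and 37.6%) to 66.1% *Scnn1a* in the rest. In the rest that share was 81.2% over chip columns 1 to 10 and 42.3% over columns 11 to 20. The type 2 channel bar rests on 1 cell each for *Scnn1b* and *Scnn1g*. *Atp1b1* is between 80.8% and 82.5% of the summed beta subunit reads, though 1 cell held 57.9% of the *Atp1b3* reads in type 1.

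An even sum did not mean an even channel in each cell. Per kb, *Scnn1a* was the leading subunit in 12 type 1 cells, *Scnn1b* in 15 and *Scnn1g* in 18, and by reads in 20, 12 and 13. The *Scnn1a* share of a type 1 cell's channel reads per kb ran from 0.925% to 100% with a median of 30.7%, the *Scnn1b* share from 0% to 98.9% with a median of 13.9%, and the *Scnn1g* share from 0% to 96.1% with a median of 30.4%. Over the 45 type 1 cells, Pearson's r of log2(CPM + 10) was 0.178 between *Scnn1a* and *Scnn1b*, 0.199 between *Scnn1a* and *Scnn1g* and 0.016 between the neighbouring genes *Scnn1b* and *Scnn1g*, too weak in counts of this kind to be read as a relation. Over all 92 cells, which share a mouse and a chip and differ in class and depth, r was 0.397, 0.597 and 0.360.

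All 3 subunits were detected together in 27 of 45 type 1 cells, or 60% (95% binomial interval 44.3 to 74.3, Clopper-Pearson). Of the other type 1 cells, 11 had *Scnn1a* with *Scnn1g*, 4 had *Scnn1a* with *Scnn1b* and 3 had *Scnn1a* alone, so that *Scnn1a* was present in each of the 45. The complete set was found in 1 of 11 type 2 cells, or 9.09% (0.230 to 41.3), and in 4 of 36 cells of the rest, or 11.1% (3.11 to 26.1). After 90000 reads were drawn from every cell the counts were 22 of 45, 0 of 11 (interval up to 28.5%) and 0 of 36 (up to 9.74%). None of the type 2 or remaining cells had 5 reads or more of each subunit. Type 1 cells with a read of *Scnn1b* had a median depth of 536362 reads and the 14 without had 336910, while their median *Ager* levels were close at 21432 and 21690 CPM. At 90000 reads per cell *Scnn1b* was still found in 29 of the 31 cells, and the part of depth in the remaining 14 was not tested.

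**Figure D3:**
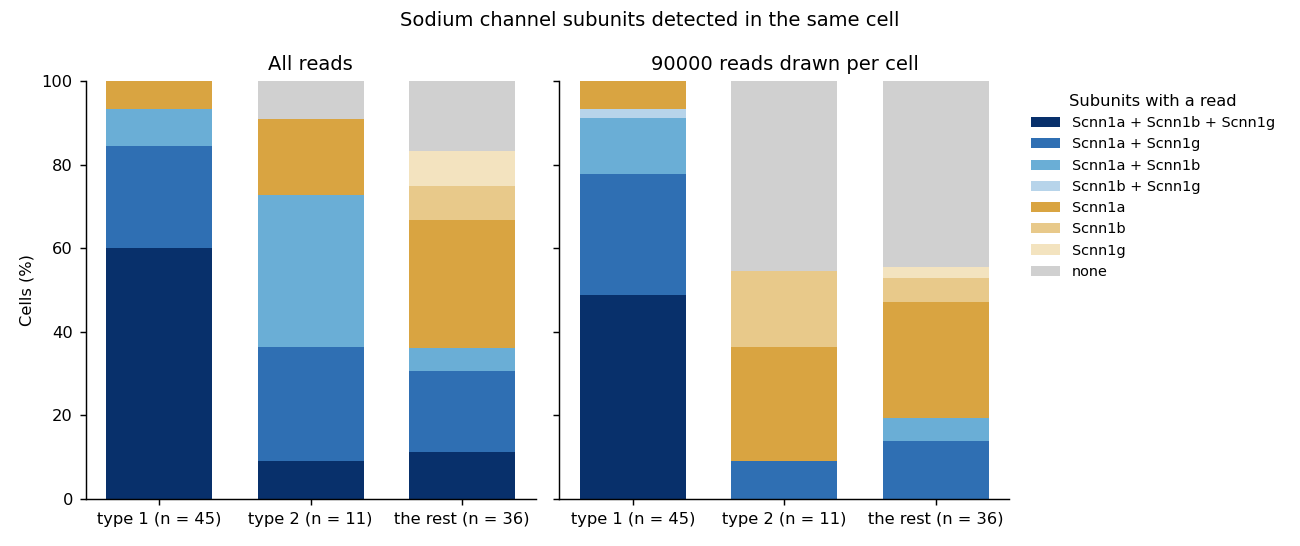
Stacked bars show the percentage of cells with reads of each combination of *Scnn1a*, *Scnn1b* and *Scnn1g*, from all reads (left) and from 90000 reads drawn per cell (right), for type 1 (n = 45), type 2 (n = 11) and the rest (n = 36). The complete set (darkest) falls from 60% to 22 of 45 cells in type 1, and from 1 and 4 cells to none in the other classes.

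A low read number of a channel subunit outside type 1 has to be set against the reads of class-defining genes found in cells of other classes. *Ager* had reads in 46 of 47 cells outside type 1, at a median of 32.5 CPM or 0.152% of the type 1 median, and *Sftpc* in 81 of 81 cells outside type 2, at a median of 64.7 CPM or 0.0400% of the type 2 median. Both genes are very abundant in their own class. The pooled *Ager* value joins unlike classes, with a median of 820 CPM in the 11 type 2 cells and 22.1 CPM in the rest. It is therefore no gauge of stray reads in type 2, and whether the *Ager* reads there were stray was not tested. For the channel subunits, counts of 1 to 3 reads made up 7 of the 10 type 2 cells with *Scnn1a*. The other 3 type 2 cells, at 110.5, 222 and 335 CPM of *Scnn1a*, had 164, 84 and 239 reads.

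Within the rest, the subunits were divided among the groups. Club-like cells had 158 CPM of *Scnn1a* (150.2 to 166), detected in 10 of 11 cells, with 41.6 CPM of *Scnn1g* and 1.19 CPM of *Scnn1b*. Without the highest cell of each gene these were 125.2, 22.8 and 0.110 CPM, and the *Scnn1g* median was 0.998 CPM. Their channel reads per kb were 72.7% *Scnn1a*, 26.5% *Scnn1g* and 0.857% *Scnn1b*. Ciliated-like cells had 110.8 CPM of *Scnn1a* in 8 of 12 cells with a median of 7.64 CPM, of which 1 cell held 51.6% of the reads and without which they were at 60.2 CPM, and only 5 reads of *Scnn1g* and 2 of *Scnn1b*, so *Scnn1a* was 98.6% per kb. In the 4 basal-like cells *Scnn1a* was at 313 CPM in 1 cell, at 1.53 CPM (1 read) in another and at 0 in 2, *Scnn1g* had 1 read and *Scnn1b* none, which allows up to 0.909 CPM at 3 reads over the group. The 9 unnamed cells were the reverse, with 455 reads of *Scnn1b* (95.4% per kb) against 32 of *Scnn1a* and 2 of *Scnn1g*. Those *Scnn1b* reads came almost entirely from 3 cells, at 385, 197 and 101.9 CPM.

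**Figure D4:**
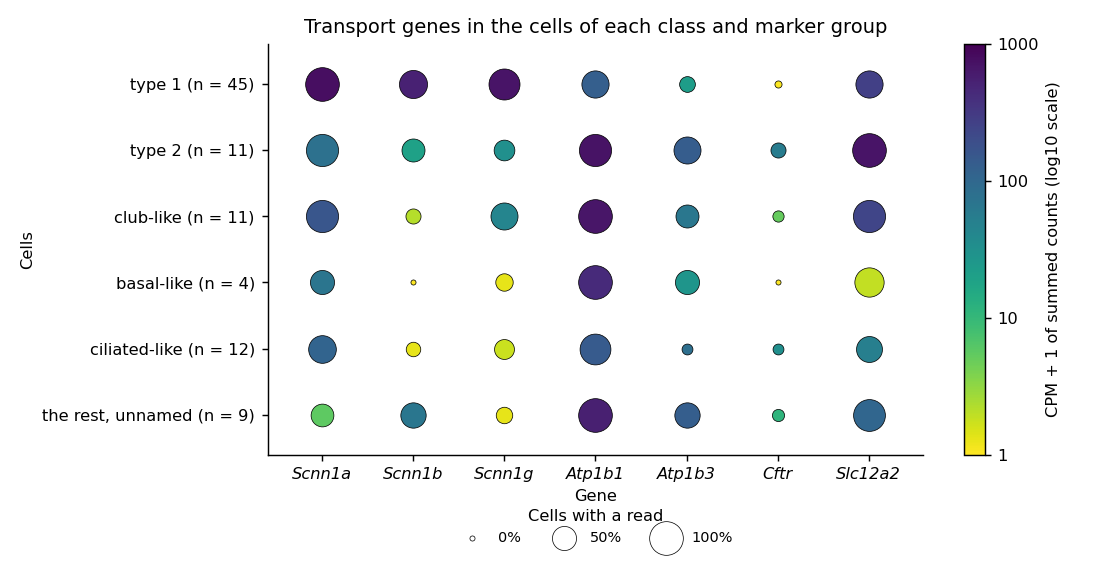
Columns are the 7 transport genes and rows the type 1, type 2, club-like, basal-like, ciliated-like and unnamed cells. Colour gives CPM + 1 of summed counts on a log10 scale and circle area the percentage of cells with a read. Type 1 is dark for all 3 channel subunits (765, 525 and 692 CPM), while *Atp1b1* is darkest in type 2 (718 CPM) and club-like cells (674 CPM).

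The sodium pump beta subunits had the opposite order. *Atp1b1*, the common beta subunit of epithelia, had a level of 718 CPM in type 2 (698 to 739), 483 CPM in the rest (475 to 492) and 126.4 CPM in type 1 (121.9 to 131.1). In single cells it ran from 0 to 2814 CPM in type 2 with a median of 446, from 0 to 2429 CPM in the rest with a median of 316, and from 0 to 3124 CPM in type 1 with a median of 3.21. It was above 100 CPM in 8 of 11 type 2 cells, 22 of 36 cells of the rest and 8 of 45 type 1 cells. *Atp1b3*, another beta isoform of the pump, was at 132.01 CPM in type 2 (123.3 to 141.2), 80.01 CPM in the rest (76.7 to 83.5) and 20.8 CPM in type 1 (19.02 to 22.8), and was detected in 7 of 11, 13 of 36 and 9 of 45 cells.

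Summed, the beta subunits were 5.77-fold higher in type 2 than in type 1 (5.53 to 6.03) and 3.83-fold higher in the rest than in type 1 (3.69 to 3.97). Relative to the median gene the log2 ratio of type 1 to type 2 was -3.64 for *Atp1b1* and -3.80 for *Atp1b3*, and 12.3% and 11.6% of genes lay at least as far towards type 2. The order of type 2 over the rest was less firm. *Atp1b1* was 1.49-fold higher in type 2 by summed reads (1.44 to 1.54), but a single type 2 cell held 43.8% of the reads, without which the level was 454 CPM, and over chip columns 1 to 10 the rest was higher, at 565 against 538 CPM. *Atp1b3* was 1.65-fold higher in type 2 (1.52 to 1.79), but with a mitochondrial share limit of 0.10 the rest was higher, at 94.7 against 47.4 CPM.

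Type 1 cells fell into a large group with little *Atp1b1* and a small one with much. The 8 cells above 100 CPM held 97.7% of the class's *Atp1b1* reads, and the other 37 held 2.29%. The highest, at 3124 CPM from 793 reads, was also the type 1 cell with the lowest *Ager* (9335 CPM), and without it the class was at 93.2 CPM. The 8 cells had a median *Ager* level of 22700 CPM, against 21394 CPM in the 37, a median club list level of 262 against 285 CPM, and a median type 2 list level of 564 against 525 CPM, and none of the 8 carried a second marker list. Their *Scnn1a* median was 807 against 526 CPM and their *Scnn1g* median 641 against 277 CPM, with overlapping ranges. Over the 45 cells r with *Atp1b1* was 0.154 for *Scnn1a* and 0.0024 for *Scnn1g*. At 90000 reads per cell, *Atp1b1* was detected in 15 of 45 type 1 cells, 9 of 11 type 2 cells and 32 of 36 cells of the rest. *Atp1b3* was still more concentrated, with 57.9% of its type 1 reads in 1 cell, without which it was at 9.07 CPM.

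The make-up of the beta subunits was close in the 3 pooled sums but not when the cells were divided. *Atp1b1* was 82.5% of beta subunit reads per kb in type 1, 80.8% in type 2 and 82.4% in the rest, and 85.8%, 84.5% and 85.8% by reads. In type 1 the share per kb was 60.9% over chip columns 1 to 10, 99.6% over columns 11 to 20 and 91.8% without the cell with most *Atp1b3* reads. In type 2 it was 89.9% with a mitochondrial limit of 0.10 and 75.6% in the cells left out at 0.15, and among the left-out cells of neither class it was 27.5%. Within the rest it was 89.2% per kb in club-like, 92.9% in basal-like, 57.2% in ciliated-like and 76.9% in unnamed cells. The ciliated-like share rested on 1 cell, which held all 540 *Atp1b3* reads of the group (973 CPM). *Atp1b1* was at 674 CPM in club-like cells, where it was detected in all 11, and at 140.8 CPM in ciliated-like cells, with a median of 11.6 CPM. The 4 basal-like cells were at 844, 605, 420 and 67.6 CPM. Basal-like cells therefore had *Atp1b1* in each cell and next to no *Scnn1b*, *Scnn1g* or *Slc12a2*.

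Of the 27 type 1 cells with the complete channel, 20 had a read of either beta subunit and 7 had none, and at 90000 reads per cell these counts were 8 and 14 of 22. Among all 45 type 1 cells, 31 had a read of either beta subunit, and 16 at 90000 reads per cell. Cells with the complete channel were thus close to the class as a whole.

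*Cftr*, the chloride channel mutated in cystic fibrosis, was found in 6 of 92 cells. The type 1 class had 1 read in 1 of 45 cells, or 0.043 CPM (0.0011 to 0.241). Type 2 had 362 reads in 2 of 11 cells, of which 360 were in 1 cell at 333 CPM, so the class level of 55.9 CPM became 0.371 CPM without that cell. The rest had 327 reads in 3 of 36 cells, at 407 CPM in a ciliated-like cell, 105.6 CPM in a club-like cell and 72.5 CPM in an unnamed cell, or 12.1 CPM in all (10.8 to 13.5). Which of type 2 and the rest was higher rested on 1 cell, and no ratio to type 1 is given because that class had 1 read. Each of the 5 *Cftr* cells outside type 1 also had reads of *Scnn1a* and of *Slc12a2*, as did 28 of all 47 cells outside type 1. None of the cells had ionocyte markers above 4.27 CPM.

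*Slc12a2*, whose product brings sodium, potassium and chloride into the cell, had reads in most cells of every class, unlike *Cftr*. It was at 695 CPM in type 2 (675 to 716), 271 CPM in type 1 (264 to 278) and 129 CPM in the rest (124.7 to 133.3). All 11 type 2 cells had it, from 11.1 to 2001 CPM with a median of 267. Type 1 cells ran from 0 to 2208 CPM with a median of 5.49, and cells of the rest from 0 to 812 CPM with a median of 6.23. The type 2 level was 2.57-fold that of type 1 (2.47 to 2.67) and 5.39-fold that of the rest (5.16 to 5.64). A single type 2 cell held 65.9% of the reads, and the class was at 307 CPM without it. With a mitochondrial limit of 0.10 the levels were 272 CPM in type 2, 203 CPM in type 1 and 121.8 CPM in the rest, or 1.34-fold and 2.24-fold. At 90000 reads per cell it was detected in 11 of 11 type 2 cells, 21 of 45 type 1 cells and 15 of 36 cells of the rest.

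In type 1 cells *Slc12a2* was again carried by a minority. The 12 cells above 100 CPM held 98.5% of the class's reads, and their medians of *Ager* (22919 CPM), *Scnn1a* (541 CPM) and the type 2 list (378 CPM) stood beside 21432, 608 and 580 CPM in the other 33. The median of *Scnn1g* was 145 CPM in the 12 and 616 CPM in the 33, with overlapping ranges, and r between *Slc12a2* and *Scnn1g* over the 45 cells was -0.136. Within the rest *Slc12a2* was at 239 CPM in club-like cells (142.5 CPM without the highest), 103.5 CPM in unnamed cells and 51.5 CPM in ciliated-like cells, where 1 cell held 96.5% of the reads. The 4 basal-like cells had 3 reads between them. The ciliated-like cell with most *Slc12a2* (625 CPM) was also the one with *Cftr*.

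The genes whose levels over the 92 cells were most like each member were sought among the 5170 genes with reads in at least 20% of cells, by Pearson's r of log2(CPM + 10). For *Scnn1a* they were *Pxdc1* (0.667), *Hopx* (0.663) and *Ager* (0.661), for *Scnn1b* *Rtkn2* (0.560), *Col4a3* (0.554) and *Slco3a1* (0.540), and for *Scnn1g* *Rtkn2* (0.697), *Hopx* (0.671) and *Cadm1* (0.669). *Hopx*, *Ager*, *Rtkn2* and *Col4a3* are on the type 1 marker list. For *Atp1b1* the nearest genes were the club list genes *Hp* (0.520) and *Cbr2* (0.481) and then *Rps3a3* (0.474), and for *Atp1b3* *Fam50a* (0.479), *Gm15661* (0.468) and *Dram1* (0.395). *Slc12a2* was nearest to *Adgrf5* (0.421), *Cxcl15* (0.391) and *Slc34a2* (0.390), of which the last 2 are type 2 list genes. *Cftr*, with reads in 6 cells, was nearest to *Socs2* (0.475), *Ccrn4l* (0.452) and *Sdhaf4* (0.421). The 92 cells share an animal and a chip and differ in class and depth, and the values describe these cells only.

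A list of 54 other genes of sodium, potassium and chloride transport and their regulators was read in the same way, of which 45 were counted. Of 28 with 10 CPM or more in type 1 or type 2, 9 were at least 1 log2 unit higher in type 1 (32.1%, beside 51.4% of all genes) and 12 were higher in type 2 (42.9%, beside 24.3%). The median log2 ratio was 0.16 for the list and 1.13 for all genes. Of 32 in type 1 or the rest, 13 were higher in type 1 (40.6%, beside 33.4%) and 15 were higher in the rest (46.9%, beside 34.8%). Of 35 in type 2 or the rest, 11 were higher in type 2 (31.4%, beside 21.7%) and 15 were higher in the rest (42.9%, beside 51%).

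In the type 1 class, 8 list genes were at least 1 log2 unit above both other classes, of which 5 are named. *Ano1*, a calcium-activated chloride channel, was at 805 CPM in 41 of 45 cells, beside 98.8 CPM in type 2 and 161 CPM in the rest. *Nr3c1*, the glucocorticoid receptor, was at 453 CPM in type 1, 12.7 CPM in type 2 and 73.2 CPM in the rest. *Sgk1*, a kinase induced by corticosteroids that keeps the sodium channel at the membrane, was at 364, 0.618 and 104.2 CPM. *Clcn3*, a chloride-proton exchanger of endosomes, was at 265, 28.9 and 112.1 CPM, and *Lrrc8a*, a subunit of the volume-regulated anion channel, was at 151, 0.463 and 29.4 CPM. The 4 other than *Ano1* had reads in 11 to 28 of the 45 cells.

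Above both other classes in type 2 were 8 list genes. *Prss8*, which encodes the channel-activating protease prostasin, was at 533 CPM there, 149.8 CPM in type 1 and 64.3 CPM in the rest, but without its highest cell type 2 was at 141.3 CPM. *Slc26a9*, a chloride channel and transporter, was at 329 CPM in 5 of 11 type 2 cells and had 3 reads in the type 1 class. *Stk39*, a kinase that activates NKCC1, was at 129.5 CPM in 3 of 11 type 2 cells and had no read in type 1, which allows up to 0.130 CPM. Without its highest cell type 2 was at 35.4 CPM. *Fxyd2* (70.7 CPM), a regulator of the sodium pump, and *Adrb1* (61.8 CPM), the beta-1 adrenergic receptor, each came from 1 type 2 cell, and *Tmprss4* (40.8 CPM), a membrane protease, came from 3 and was at 13.3 CPM without the highest.

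The rest had 7 such genes, and the pump regulators *Fxyd3* and *Fxyd1* were among them. *Fxyd3* was at 217 CPM in 19 of 36 cells, against 0.346 CPM in type 1 and 0.309 CPM in type 2, and *Fxyd1* at 105.4 CPM in 11 of 36 cells, against 0.173 CPM in type 1 and no read in type 2. Without the highest cell they were at 174.9 and 44.4 CPM. The potassium channel genes *Kcne3* (133.5 CPM) and *Kcnq1* (36.2 CPM) were each found in 5 of 36 cells, and were at 57.01 and 24.7 CPM without the highest. *Usp2*, a deubiquitinase, was at 67.6 CPM and *Slc4a5*, a bicarbonate cotransporter, at 39.9 CPM, each in 14 of 36 cells, or 42.4 and 11.3 CPM without the highest.

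The 49 cells left out for a mitochondrial share of 0.15 or more were a second set of cells of the same animal and chip, of which 19 passed the *Ager* limit and 16 the *Sftpc* limit. Among them the order of type 1 and type 2 was the same as in the kept cells for all 7 genes. The channel sum was 1576 CPM in the 19 type 1 cells and 19.8 CPM in the 16 type 2 cells, a log2 ratio of 6.32 (6.01 to 6.64), beside 3.98 in the kept cells. The beta subunit sum was 4.39 CPM in type 1 and 812 CPM in type 2. This was a log2 ratio of -7.53 (-8.06 to -7.05), beside -2.53 in the kept cells. The type 1 sum of the cells left out rested on 35 reads. In the kept type 1 cells, 8 of 45 held 97.7% of the *Atp1b1* reads and the cell median was 3.21 CPM. All 3 channel subunits were detected in 13 of 19 type 1 cells, 0 of 16 type 2 cells and 1 of 14 other cells. *Atp1b1* had 34 reads in the 19 type 1 cells and 2856 in the 16 type 2 cells, all 16 of which had reads. By subunit, type 1 cells that were left out had more *Scnn1g* than kept ones (853 against 692 CPM) and less *Scnn1b* (394 against 525 CPM) and *Scnn1a* (329 against 765 CPM).

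**Figure D5:**
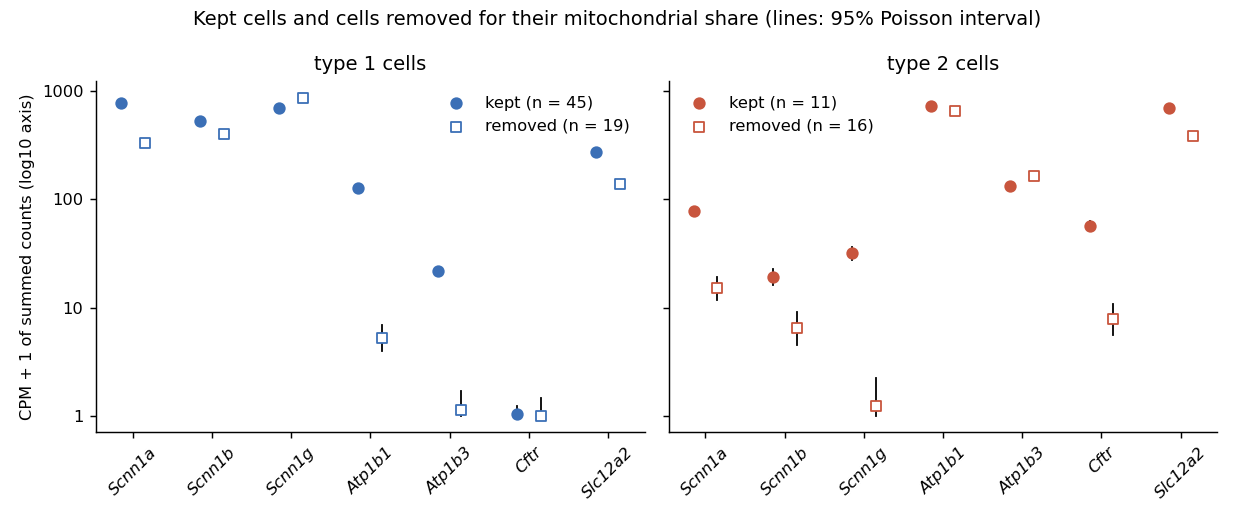
Points give CPM + 1 of summed counts on a log10 axis for each transport gene in kept cells (filled circles) and in cells left out for their mitochondrial share (open squares), for type 1 (left, n = 45 and 19) and type 2 (right, n = 11 and 16), with lines for 95% Poisson intervals. *Atp1b1* in type 1 is at 126.4 CPM in kept cells and 4.26 CPM in the cells left out. The kept value came mostly from 8 of 45 cells, which held 97.7% of the reads, and the median kept cell had 3.21 CPM. *Scnn1g* is at 692 and 853 CPM.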

How the data were processed

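The authors captured cells and made cDNA on a C1 high-throughput chip, sequenced the libraries on an Illumina instrument, used Trim Galore and FastQC for read quality, HISAT2 for alignment to GRCm38 and featureCounts for counting, and deposited raw read counts, 1 column per cell. Versions, annotation and strand setting are not given in the sources used here. No per-sample column was left unmapped (0). The mitochondrial limit of 0.15 follows the study's methods. Its limits on reads and genes were not applied again here, and the lowest total of any counted cell was 91402 reads.

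Classes were set by *Ager* and *Sftpc* CPM. Reads were summed per class and scaled to CPM, with exact Poisson intervals for levels, Clopper-Pearson intervals for shares and exact conditional binomial intervals for ratios, all at 95%. A count of 0 was taken to allow 3 reads. Lengths and positions came from GENCODE vM21 (merged exons). Thinning drew 90000 reads per cell without replacement. With 1 mouse a class is 1 sample, so no test was made. The code for the class ratios and for the ranking of genes by correlation was checked on simulated counts, and the other steps were not. That check used planted changes and near-copies of well-expressed genes. It does not bear on how far the values given here rest on single cells. Genes named are the 7 members, class markers, the 3 nearest genes of each member, and list genes at 20 CPM or more in a class and at least 1 log2 unit above both others, at most 6 a class. Some genes that this rule names are not reported here. The members and all lists were chosen with earlier results of these data known. Alternatives changed the mitochondrial limit, class limits, library size, depth, detection limit, chip columns and highest cells. Subunit shares and class ratios under these settings, and marker lists without the class gene, were added after the data were seen. Python 3.11.15, numpy 2.4.6, pandas 2.3.3, scipy 1.17.1 and matplotlib 3.10.9 were used.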

Additional observations from a re-analysis of the deposited data

Results flagged for a closer look

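The 49 cells with a mitochondrial share of 0.15 or more lay outside the comparisons between classes, and each of the 7 genes had reads there above the 3 reads that a count of 0 allows. The totals were 3037 reads for *Scnn1a*, 3174 for *Scnn1b*, 6812 for *Scnn1g*, 3041 for *Atp1b1*, 1024 for *Atp1b3*, 31 for *Cftr* and 2833 for *Slc12a2*. Of these, the 19 cells that passed the *Ager* limit held 2627 of the *Scnn1a*, 3143 of the *Scnn1b* and 6805 of the *Scnn1g* reads, and the 16 that passed the *Sftpc* limit held 2856 of the *Atp1b1*, 715 of the *Atp1b3* and 30 of the *Cftr* reads.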

How the results depend on the processing

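No paired analysis was possible because all cells came from 1 mouse and no test was made. The log2 ratio of the summed channel subunits, type 1 over type 2, was 3.98 and stayed positive: 3.70 with a mitochondrial limit of 0.10, 4.50 with all cells, 4.13 with an *Sftpc* limit of 4000 CPM, 3.63 without mitochondrial reads and abundant genes in the library size, 4.83 without the highest cell of each class, 2.99 over chip columns 1 to 10 and 5.53 over columns 11 to 20. For the pump beta subunits it was -2.53 and stayed negative: -2.33 with the limit of 0.10, -2.92 with all cells, -2.90 with an *Ager* limit of 10000 CPM, -2.87 without mitochondrial reads and abundant genes, -2.23 as a mean over cells, -2.32 at 90000 reads per cell, -2.40 without the highest cells and -2.37 over columns 11 to 20. For the sum of *Cftr* and *Slc12a2*, the rest over type 1, the log2 ratio was -0.94. It was -0.57 with the limit of 0.10, -0.86 with the *Sftpc* limit of 4000 CPM and -1.11 with classes from marker lists. Without mitochondrial reads and abundant genes it was -0.77, as a mean over cells -0.76, at 90000 reads per cell -0.79 and over columns 1 to 10 -0.72. That sum was almost all *Slc12a2*, with 6265 of 6266 reads in type 1 and 3488 of 3815 in the rest. *Cftr* alone went the other way, with 327 reads in the rest and 1 in type 1. The share of cells with all 3 channel subunits fell to 0 in type 2 with the limit of 0.10, at 90000 reads per cell, over columns 1 to 10, and with at least 5 reads or at least 10 CPM required, and to 0 in the rest at 90000 reads per cell and with at least 5 reads or 10 CPM. The share in type 1 stayed within its interval throughout. Except where the setting itself removes cells or reads, the cause was not tested.

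The class with the highest level was type 1 for *Scnn1a*, *Scnn1b* and *Scnn1g* and type 2 for *Slc12a2* in all 14 settings. Among the 14, the limits of 2500 CPM for *Ager* and 16000 CPM for *Sftpc* left every class unchanged and could not alter the order. For the pump beta subunits and *Cftr* the order was less steady. The highest class was type 2 in 13 of 14 settings for *Atp1b1* and *Atp1b3*, and in 12 of 14 for *Cftr*. For *Cftr* the rest was highest over columns 11 to 20 and without the highest cells. Cell number, as well as depth, limits the calls of absence, since type 2 and the groups within the rest hold 4 to 12 cells each. The intervals leave out differences between animals.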
